A study of Rattus norvegicus with 12 samples.

Results

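The genes that build ribosomes were followed in HCN cells, a neural stem cell line cloned from the adult rat hippocampus, after knockdown of the repressor REST. Members were taken by gene symbol: RNA polymerase I subunits and their initiation factors, nucleolar proteins, small nucleolar ribonucleoproteins, small and large subunit processing factors and the RNA exosome. The rule found 68 genes among the 16468 that each deposited table lists. The symbol rule uses no measured value, though it was written with earlier results of these data known, and all 68 reached at least 1 FPKM (fragments per kilobase of transcript, scaled by the mapped fragments of the library) in all 4 groups.

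Total RNA depleted of ribosomal RNA was sequenced from 12 libraries. The tested cells were electroporated with a vector carrying a short hairpin RNA against Rest and grown in FGF2 plus BMP4, which induces quiescence (iQNP knockdown, 4 libraries), or in FGF2 alone, in which they proliferate (TAP knockdown, 4 libraries). Their controls received the empty vector in the same media (iQNP control, 2 libraries, and TAP control, 2 libraries). All groups are 1 cell line at multiple passages, all carry a plasmid that also encodes EGFP, and the hairpin vector has no scrambled hairpin as its counterpart here. The deposited tables hold 1 pooled FPKM value per gene and group, so no SD, interval or test can be given for any value in this text, and each comparison below is a description of pooled libraries. Whether a difference exceeds the spread between libraries is therefore unknown.

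Ribosomes are assembled in the nucleolus. RNA polymerase I transcribes a long precursor that holds most of the ribosomal RNAs, box C/D and box H/ACA ribonucleoproteins modify it, a large processome folds and cuts the small subunit part, a separate set of factors matures the large subunit part, and the exosome trims ends. Demand for ribosomes is high in cells that grow and divide, and quiescent neural stem cells are known for lower protein synthesis than activated ones.

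Rest itself, the target of the hairpin, was at 13.9 FPKM in iQNP knockdown and 48.7 FPKM in iQNP control, and at 9.0 FPKM in TAP knockdown and 27.8 FPKM in TAP control. Rest was thus 71.5% lower in iQNP knockdown and 67.6% lower in TAP knockdown, as labelled. The neural stem cell markers Nes, Sox2, Vim, Fabp7 and Pax6 were above 1 FPKM in every group, and all 5 microglia and leukocyte markers were below 1 FPKM in every group, with summed levels of 0.279 FPKM in iQNP knockdown, 0.0953 in iQNP control, 0.208 in TAP knockdown and 0.590 in TAP control. Markers of other lineages were also present. The neuron markers Tubb3, Dcx and Map2 and the astrocyte markers Gfap and S100b were above 1 FPKM in every group, and Aqp4 was below it. Tubb3 was at 126.3 FPKM in iQNP knockdown against 58.4 in iQNP control, and at 58.9 in TAP knockdown against 21.4 in TAP control. Map2 went the other way, at 47.9 against 110.5 FPKM in iQNP and 48.9 against 102.3 FPKM in TAP. Among oligodendrocyte lineage genes, Sox10 and Mbp were above 1 FPKM in every group, while Mog was below 1 FPKM in every group. Sox10 was at 380.4 FPKM in iQNP knockdown against 455.1 FPKM in iQNP control, and at 348.1 FPKM in TAP knockdown against 615.3 FPKM in TAP control, and its part in the values below was not tested. In bulk RNA, fewer cells of a type and less RNA per cell cannot be told apart.

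Promoters of 61 of the 68 members were found in the RefSeq table of assembly GRCr8, each running from 250 bases before to 50 bases after the gene start. They are shown for the marker genes of the group, since the shared letters in them were not part of the rule. Capitals mark matches to the E box CACGTG, which is its own reverse complement, and to the ETS family core CCGGAAG on either strand. Each window is printed 5′ to 3′ on the strand of its gene.
Npm1 (GRCr8 chr10:18255692-18255991, minus strand): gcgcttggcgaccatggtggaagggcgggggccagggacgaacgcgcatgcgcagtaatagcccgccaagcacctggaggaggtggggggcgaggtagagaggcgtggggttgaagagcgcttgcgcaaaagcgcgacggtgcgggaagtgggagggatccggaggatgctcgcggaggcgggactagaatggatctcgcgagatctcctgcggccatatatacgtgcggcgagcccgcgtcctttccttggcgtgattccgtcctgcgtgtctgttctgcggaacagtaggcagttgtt
Fbl (GRCr8 chr1:92597157-92597456, plus strand): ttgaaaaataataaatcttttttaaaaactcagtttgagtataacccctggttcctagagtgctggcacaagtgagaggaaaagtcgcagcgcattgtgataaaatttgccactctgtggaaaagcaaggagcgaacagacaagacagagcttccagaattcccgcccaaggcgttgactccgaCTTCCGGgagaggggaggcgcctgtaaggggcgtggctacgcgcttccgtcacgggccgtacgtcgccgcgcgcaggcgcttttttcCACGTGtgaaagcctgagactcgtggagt
Nhp2 (GRCr8 chr10:36377770-36378069, plus strand): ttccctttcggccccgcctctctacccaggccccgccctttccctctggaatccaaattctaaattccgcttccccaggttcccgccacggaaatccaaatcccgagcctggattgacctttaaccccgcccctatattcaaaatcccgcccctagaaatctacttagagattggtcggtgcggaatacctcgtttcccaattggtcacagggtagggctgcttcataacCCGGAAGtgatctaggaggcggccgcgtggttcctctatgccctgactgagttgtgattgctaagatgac
Imp3 (GRCr8 chr8:66235248-66235547, plus strand): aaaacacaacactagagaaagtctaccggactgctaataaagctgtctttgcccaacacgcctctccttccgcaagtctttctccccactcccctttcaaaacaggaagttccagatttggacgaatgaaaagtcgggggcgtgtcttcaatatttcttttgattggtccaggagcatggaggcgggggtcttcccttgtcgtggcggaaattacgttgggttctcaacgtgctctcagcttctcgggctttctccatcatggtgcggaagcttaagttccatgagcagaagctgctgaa

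In Fbl the E box began 21 bases after the gene start and the ETS core, on the reverse strand, 66 bases before it. In Nhp2 the ETS core began 20 bases before the start, on the forward strand, and the windows of Npm1 and Imp3 held neither string. Over the group, the ETS core was present in 28 of 61 member promoters (45.9%), against 18.9% of 8059 promoters of genes with at least 1 FPKM in any of the 4 groups and 9.63% of all 27457 promoters. The E box, the site read by MYC and related factors, was present in 15 of 61 (24.6%), against 9.85% and 7.08%. REST binds the bipartite RE1 element: its left part TTCAGCACC was in 0 of 61 member windows, against 0.404% of all promoters, and its right part GGACAGC in 5 of 61 (8.20%), against 7.23%. These matches are letters in a window of 300 bases and are neither binding sites nor causes, and a missing string says nothing of the factor. Among members at least 2-fold higher after knockdown in both media, 5 of the 8 with a promoter held the ETS core (Fbl, Nhp2, Ddx56, Nip7 and Nol12), and among members at least 2-fold lower, 2 of 6 did (Bms1 and Utp3).

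On the deposited scale, a minority of ribosome biogenesis genes were at least 2-fold higher after knockdown in quiescent cells and none was past 2-fold lower. That balance turns to more lower than higher when both groups are set to the same sum of FPKM. Ratios were taken as log2((knockdown FPKM + 1)/(control FPKM + 1)). In iQNP, 15 of 68 members (22.1%) were at least 2-fold higher after knockdown and 0 were at least 2-fold lower, where 14.4% of the 9776 genes with at least 1 FPKM in either group were higher and 3.18% lower. The median log2 ratio of the members was 0.10, beside 0.01 for all genes, with 40 members above 0 and 28 below, and the range was -0.93 to 3.82. In TAP, 10 of 68 (14.7%) were at least 2-fold higher and 7 (10.3%) at least 2-fold lower, where 15.4% of 9552 genes were higher and 6.99% lower, and the median was 0.11, beside 0.01 for all genes. The share of members that were higher in TAP was thus near that of all genes.

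These splits depend on how the groups are scaled. The FPKM of all genes summed to 1058060 in iQNP knockdown and 734692 in iQNP control, and to 1014740 in TAP knockdown and 665644 in TAP control, so setting equal sums lowers log2 ratios by up to 0.53 in iQNP and 0.61 in TAP, and by less for low genes because of the added 1 FPKM. On equal sums, 6 members were higher and 13 lower in iQNP (median -0.39), and 5 were higher and 17 lower in TAP (median -0.48). The same turn was seen over all genes, of which 7.85% were higher and 20.6% lower in iQNP and 6.92% and 25.7% in TAP on that scale, so the members' shares stayed near those of all genes. Much of the excess lay in genes for ribosomal proteins: with these left out of the sums, 12 members were higher and 2 lower in iQNP (median -0.10), and 8 were higher and 9 lower in TAP (median -0.05), where 11.2% of all genes were higher and 8.02% lower in iQNP and 12.7% and 10.3% in TAP. Centring on the median gene moved all ratios by 0.01. Directions of single genes below are on the deposited scale.

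**Figure D1:**
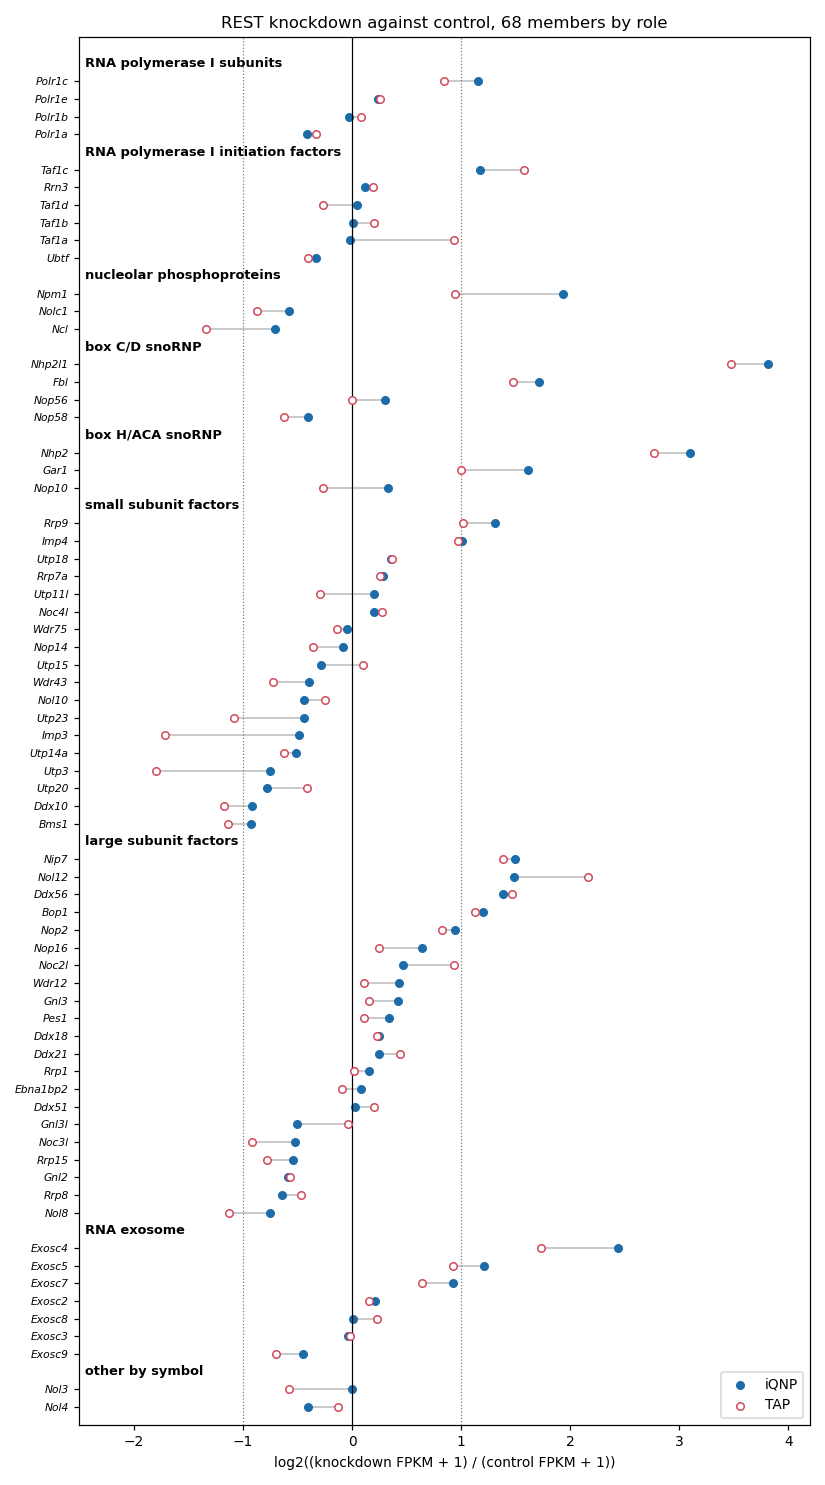
All 68 members grouped by role, with the log2 ratio of knockdown over control on the horizontal axis. Filled points are iQNP, open points TAP, each from 1 pooled value per group, and dotted lines mark 2-fold. The highest points are Nhp2l1 (3.82 in iQNP, 3.48 in TAP) and the lowest is Utp3 (-1.80 in TAP).

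The members hold 4 RNA polymerase I subunits and 6 initiation factors, and all but Polr1c and Taf1c stayed within 2-fold. Subunits shared with other polymerases under Polr2 symbols are not members. Several of those were past 2-fold higher and are given further below. Polr1c, a subunit that RNA polymerases I and III share, was at 37.2 FPKM in iQNP knockdown and 16.1 FPKM in iQNP control (log2 ratio 1.16), and at 39.8 FPKM in TAP knockdown and 21.7 FPKM in TAP control (0.84). The catalytic core subunits did not share this: Polr1a, the largest, had log2 ratios of -0.41 in iQNP and -0.33 in TAP, and Polr1b -0.03 and 0.08. For Polr1e, a subunit of the initiating enzyme, they were 0.24 and 0.26. Among the initiation factors, Taf1c, a part of the selectivity factor SL1 that recognises the ribosomal DNA promoter, stood at 6.55 FPKM in iQNP knockdown and 2.34 FPKM in iQNP control (1.18), and at 7.45 FPKM in TAP knockdown and 1.83 FPKM in TAP control (1.58). Its partner Taf1a was at 3.72 FPKM in iQNP knockdown against 3.79 FPKM in iQNP control (-0.02), and at 4.70 FPKM in TAP knockdown against 1.98 FPKM in TAP control (0.94). Both SL1 genes are low, and the added 1 FPKM shrinks their ratios. Taf1b (0.01 and 0.20), Taf1d (0.04 and -0.27), Rrn3 (0.12 and 0.19), which brings the polymerase to the promoter, and Ubtf (-0.33 and -0.40), which keeps ribosomal DNA open, were within 2-fold in both media.

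The most abundant members divided. Npm1, nucleophosmin, a histone and ribosome chaperone of the outer nucleolus (rn4 chromosome 10, 18051989 to 18062714), was at 526.3 FPKM in iQNP knockdown against 136.9 FPKM in iQNP control, and at 638.8 FPKM in TAP knockdown against 332.0 FPKM in TAP control. Its log2 ratios were 1.94 and 0.94. Ncl, nucleolin, which binds the precursor RNA and ribosomal DNA chromatin (rn4 chromosome 9, 85112751 to 85121276), ran opposite, at 402.7 FPKM in iQNP knockdown against 656.9 FPKM in iQNP control, and at 554.2 FPKM in TAP knockdown against 1405 FPKM in TAP control (log2 ratios -0.70 and -1.34). In both media Npm1 was therefore the most abundant member per length after knockdown, and Ncl the most abundant in control. Nolc1, a chaperone of small nucleolar ribonucleoproteins, followed Ncl with log2 ratios of -0.58 in iQNP and -0.87 in TAP, both within 2-fold.

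The highest ratios of the whole group were in small nucleolar ribonucleoproteins, and in single subunits of them. Nhp2l1, the RNA-binding core protein of box C/D particles and also part of the spliceosome (rn4 chromosome 7, 120425063 to 120430031), was at 214.3 FPKM in iQNP knockdown against 14.3 FPKM in iQNP control, 15.0 times as much. In TAP it was at 371.9 FPKM in knockdown against 32.5 FPKM in control, 11.4 times as much. Fbl, fibrillarin, the methyltransferase of the same particle (rn4 chromosome 1, 83271966 to 83281069), was at 155.7 FPKM in iQNP knockdown against 46.7 FPKM in iQNP control, and at 305.8 FPKM in TAP knockdown against 109.4 FPKM in TAP control (log2 ratios 1.72 and 1.47). The scaffold pair of the particle stayed within 2-fold. Nop56 had a log2 ratio of 0.30 in iQNP and was at 163.3 FPKM in TAP knockdown against 163.6 FPKM in TAP control, and Nop58 had log2 ratios of -0.40 and -0.62. Within 1 complex of 4 proteins, iQNP log2 ratios thus spanned -0.40 to 3.82.

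Box H/ACA particles, which convert uridine to pseudouridine and also belong to telomerase, showed the same split between the subunits found. Dkc1, which the symbol rule also names for this particle, is not among the members, so the particle is incomplete here. Nhp2, their RNA-binding core protein and a relative of Nhp2l1 (rn4 chromosome 10, 37137276 to 37140651), was at 180.5 FPKM in iQNP knockdown against 20.1 FPKM in iQNP control, and at 294.4 FPKM in TAP knockdown against 42.4 FPKM in TAP control (log2 ratios 3.10 and 2.77). Gar1 was at 31.1 FPKM in iQNP knockdown against 9.50 FPKM in iQNP control (1.61), and at 56.2 FPKM in TAP knockdown against 27.7 FPKM in TAP control, a ratio of 0.995 that lay just inside 2-fold. Nop10, the smallest core protein and the most abundant of these 3 in every group, was at 359.1 FPKM in iQNP knockdown against 285.1 FPKM in iQNP control (0.33), and at 410.4 FPKM in TAP knockdown against 493.0 FPKM in TAP control (-0.26).

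**Figure D2:**
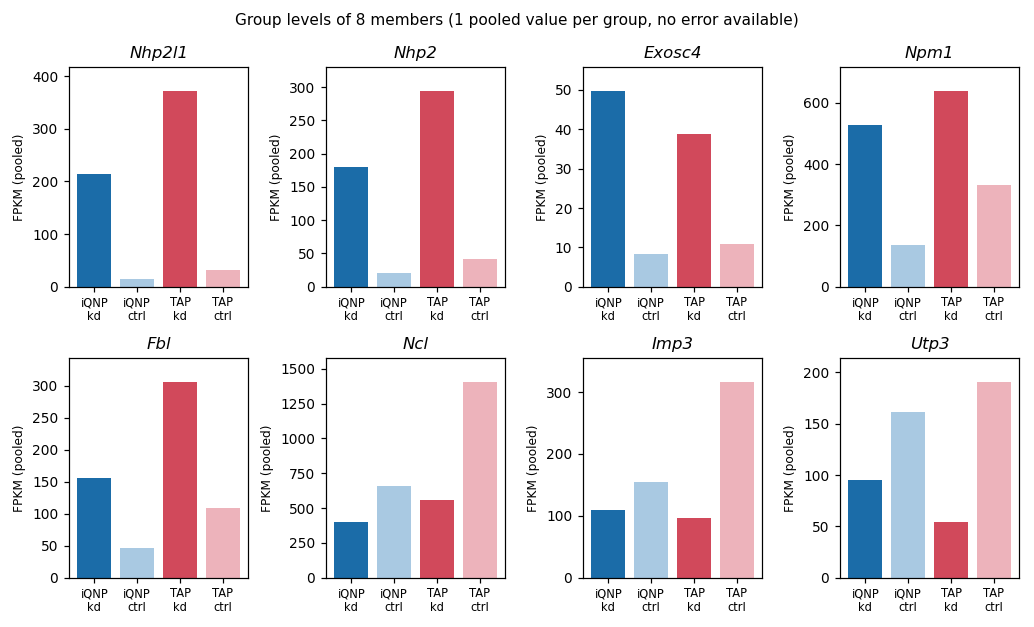
Pooled FPKM of 8 members in iQNP knockdown, iQNP control, TAP knockdown and TAP control, on axes that start at 0 and differ between genes. Bars are single pooled values with no error. Nhp2l1, Nhp2, Exosc4, Npm1 and Fbl are higher after knockdown in both media, and Ncl, Imp3 and Utp3 are lower.

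Small subunit factors mostly had log2 ratios below 0, 12 of 18 in each medium, where 50.4% of all genes were above 0 in iQNP and 50.3% in TAP. Of the 18, 2 (11.1%) were at least 2-fold higher and 0 lower in iQNP (median log2 ratio -0.34), where 14.4% of all genes were higher and 3.18% lower. In TAP 1 (5.56%) was higher and 5 (27.8%) were lower (median -0.33), where 15.4% and 6.99% of all genes were. Imp3, a protein that helps the U3 small nucleolar RNA pair with the precursor (rn4 chromosome 8, 60685388 to 60686277, a locus of only 889 bases), was at 109.9 FPKM in iQNP knockdown against 154.2 FPKM in iQNP control (-0.49), and at 95.8 FPKM in TAP knockdown against 316.5 FPKM in TAP control (-1.71). Utp3, a processome component (rn4 chromosome 14, 21095958 to 21097613), was at 95.3 FPKM in iQNP knockdown against 161.2 FPKM in iQNP control (-0.75), and at 54.1 FPKM in TAP knockdown against 190.7 FPKM in TAP control (-1.80). Both genes have loci under 2000 bases, and each was lower in TAP knockdown than in any other group. The other members past 2-fold lower in TAP had smaller gaps between the media. Log2 ratios in iQNP and TAP were -0.93 and -1.14 for Bms1, the processome GTPase, -0.92 and -1.17 for the helicase Ddx10, and -0.44 and -1.08 for Utp23, a factor with a degenerate nuclease domain. On the higher side, Rrp9, a protein of the U3 particle, was at 50.6 FPKM in iQNP knockdown against 19.8 FPKM in iQNP control (1.31), and at 73.5 FPKM in TAP knockdown against 35.8 FPKM in TAP control (1.02). Imp4, which works in 1 complex with Imp3, was at 39.9 FPKM in iQNP knockdown against 19.4 FPKM in iQNP control (1.0), and at 43.1 FPKM in TAP knockdown against 21.4 FPKM in TAP control (0.98), so it sat on either side of the 2-fold line and opposite in sign to its partner.

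Of 21 large subunit factors, the same 4 (19.0%) were at least 2-fold higher in both media, where 14.4% of all genes were in iQNP and 15.4% in TAP. In TAP 1 (4.76%), Nol8, was lower, where 6.99% of all genes were (log2 ratios -0.75 in iQNP and -1.12 in TAP). These shares were near those of all genes. Nol12, whose yeast counterpart is an exonuclease of the large subunit pathway, was at 53.6 FPKM in iQNP knockdown against 18.5 FPKM in iQNP control (1.48), and at 64.2 FPKM in TAP knockdown against 13.6 FPKM in TAP control (2.16). Nip7 was at 55.1 FPKM in iQNP knockdown against 18.9 FPKM in iQNP control (1.49), and at 74.0 FPKM in TAP knockdown against 27.7 FPKM in TAP control (1.38). The helicase Ddx56 had log2 ratios of 1.39 and 1.46. Bop1, at 70.7 FPKM in iQNP knockdown against 30.3 FPKM in iQNP control (1.20) and 104.1 FPKM in TAP knockdown against 47.0 FPKM in TAP control (1.13), forms a trimer with Pes1 and Wdr12, and those partners were within 2-fold, with log2 ratios of 0.34 and 0.11 for Pes1 and 0.43 and 0.11 for Wdr12. The reads of Bop1 also need care, since its locus overlaps Scx in the deposited tables.

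The RNA exosome, the complex that trims and degrades RNA from its 3′ end, again differed by subunit among the 7 members found. Exosc4 (rn4 chromosome 7, 114374912 to 114377655) was at 49.7 FPKM in iQNP knockdown against 8.34 FPKM in iQNP control (2.44), and at 38.7 FPKM in TAP knockdown against 10.9 FPKM in TAP control (1.74). Exosc5 had log2 ratios of 1.21 and 0.93 and Exosc7 of 0.92 and 0.64, while Exosc9, like those 3 a member of the ring, was at -0.45 and -0.70. Exosc2, Exosc3 and Exosc8 lay between -0.04 and 0.23. The symbol rule also took Nol3, an inhibitor of apoptosis (0.00 in iQNP and -0.58 in TAP), and Nol4 (-0.40 and -0.13), neither known as a ribosome biogenesis factor.

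The ratios in iQNP and TAP ran closely together. Between the media 59 of 68 members had the same sign, 34 above 0 and 25 below, and across members the log2 ratios had a Pearson r of 0.92 and a Spearman rho of 0.91 (0.89 for r without the 2 members farthest from the median). The 4 groups share no library, but they do share the cell line, the vectors and the rn4 gene models, and across 8812 genes with at least 1 FPKM in every group r was 0.91, so this closeness was not particular to ribosome biogenesis. All 10 members past 2-fold higher in TAP were also past it in iQNP: Taf1c, Fbl, Nhp2l1, Nhp2, Rrp9, Bop1, Ddx56, Nip7, Nol12 and Exosc4. Another 5 were past it only in iQNP (Polr1c, Npm1, Gar1, Imp4 and Exosc5), with TAP log2 ratios of 0.84 to 0.995, close to the line. The 7 members past 2-fold lower in TAP (Ncl, Bms1, Ddx10, Imp3, Utp23, Utp3 and Nol8) had iQNP log2 ratios of -0.93 to -0.44. The ratio was the larger in iQNP for 45 members and in TAP for 23, a difference between the media for which no test was possible. These sign and overlap counts were not taken over all genes. With r as high over all genes, they cannot be read as particular to the members.

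**Figure D3:**
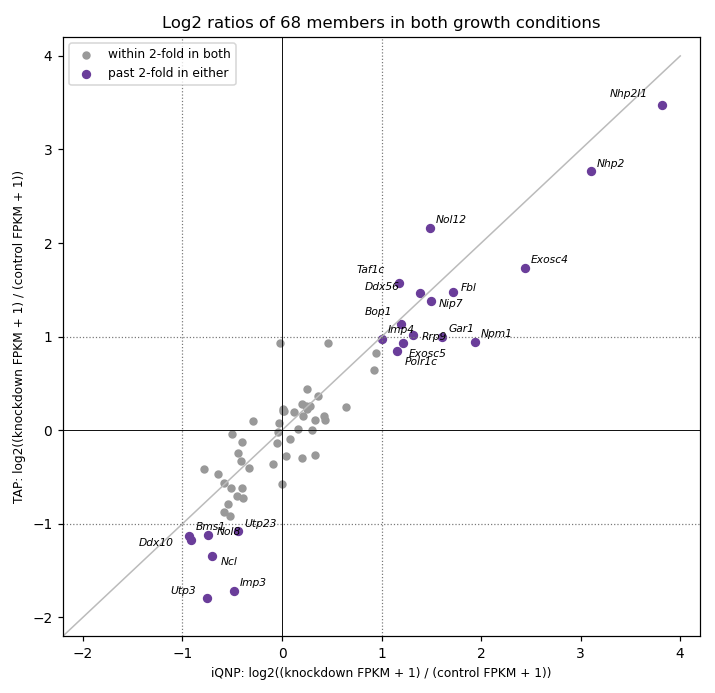
Log2 ratio of knockdown over control in iQNP (horizontal) and TAP (vertical) for each of 68 members, with the line of equality in grey and dotted lines at 2-fold. Members past 2-fold in either medium are purple and named: 10 lie past it in both, 5 only in iQNP and 7 below it only in TAP.

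The media themselves were compared between the empty-vector groups. TAP control grew in FGF2 alone and iQNP control in FGF2 plus BMP4, so proliferation and the response to BMP4 cannot be told apart. TAP control was higher than iQNP control for 64 of 68 members (94.1%), where 47.9% of 9655 genes were higher, and the median log2 ratio was 0.55, beside -0.04 for all genes. Of the members, 12 were at least 2-fold higher and 0 lower, where 6.5% and 10.8% of all genes were. The 2 tables were made in separate runs, so this comparison rests on their being on 1 scale. Members led by Gar1 (27.7 FPKM in TAP control against 9.50 FPKM in iQNP control, log2 ratio 1.45) and Taf1d (135.4 FPKM in TAP control against 53.7 FPKM in iQNP control, 1.32) were highest, and all 3 nucleolar phosphoproteins were past 2-fold, with 1.27 for Npm1, 1.22 for Nolc1 and 1.10 for Ncl. The 4 members lower in TAP control were Taf1a (-0.68), Nol4 (-0.52), Nol12 (-0.42) and Taf1c (-0.24).

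Set against this difference between the media, on the deposited scale, the members with the largest ratios lay outside the range of the 2 control groups. All 15 members at least 2-fold higher in iQNP knockdown stood at or above their TAP control level, while over all 68 members this held for 22. All 7 members at least 2-fold lower in TAP knockdown stood at or below their iQNP control level, against 16 of all 68. Choosing members by their ratio favours both counts. The same counts were not taken over all genes, so neither can be read as a trait of the members. In TAP knockdown 60 of 68 members (88.2%) were higher than in iQNP knockdown, where 45.4% of 9746 genes were. The cycling markers did not move as 1 list with the knockdown: Cdk1 was at 132.9 FPKM in iQNP knockdown against 69.4 FPKM in iQNP control and at 275.7 FPKM in TAP knockdown against 138.7 FPKM in TAP control, while Top2a was at 33.1 FPKM in iQNP knockdown against 65.8 FPKM in iQNP control and at 171.8 FPKM in TAP knockdown against 345.8 FPKM in TAP control.

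As a share of all FPKM, the 68 members came to 0.416% in iQNP knockdown against 0.488% in iQNP control, and to 0.582% in TAP knockdown against 0.928% in TAP control. The genes for cytosolic ribosomal proteins, the cargo of this pathway, took most of the space: 82 symbols came to 26.2% in iQNP knockdown against 7.64% in iQNP control, and to 35.3% in TAP knockdown against 11.6% in TAP control. Of 79 with at least 1 FPKM in either group, 69 were at least 2-fold higher and 1 lower in iQNP, with a median log2 ratio of 5.60. In TAP, 66 of 79 were higher and 2 lower, with a median of 5.19. Many of these genes, which every cell uses, are listed at 0 in control cells, 11 of 82 in iQNP control and 13 in TAP control, against 1 of 82 in either knockdown group, so an exact 0 in these tables need not mean absent RNA and the medians of this class are not levels of induction. No member of the biogenesis group is listed at 0.

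Mitochondrial ribosomal protein genes had medians of 0.70 in iQNP and 0.56 in TAP, with 18 and 15 of 66 at least 2-fold higher and 0 and 2 lower. These class medians are on the deposited scale. For RNA polymerase II subunits the medians were 0.56 and 0.77, with 3 and 4 of 11 higher, and for RNA polymerase III subunits -0.02 and 0.15, with 0 of 9 higher in either medium and 0 and 2 lower. A second list, taken by name, held 68 other genes of ribosome production. Of these, 8 (11.8%) were at least 2-fold higher and 1 (1.47%) lower in iQNP. In TAP 10 (14.7%) were higher and 8 (11.8%) lower. Over all genes 14.4% were higher and 3.18% lower in iQNP, and 15.4% and 6.99% in TAP. The list had medians of -0.04 and -0.15, and it shares Polr2e, Polr2f, Polr2h and Polr2l with the RNA polymerase II subunits above. Its largest ratios were those of subunits that all 3 nuclear polymerases share, Polr2h (39.8 FPKM in iQNP knockdown against 8.03 FPKM in iQNP control, and 57.9 FPKM in TAP knockdown against 11.3 FPKM in TAP control), Polr2l (log2 ratios 2.16 and 2.25) and Polr2f (1.56 and 1.96), and of the exosome cofactor C1d (2.17 and 2.08). These genes were named for the largest ratios of the list, so their standing above other subunits follows from that choice. Polr2e, a further shared subunit, had log2 ratios of 0.93 and 1.02. Of the RNA polymerase I subunits on the list, Znrd1 had 0.64 and 0.32, Cd3eap 0.04 and -0.71, and Twistnb -0.55 and -0.79. Myc, a known activator of ribosome biogenesis and singled out here after its values were seen, was at 72.5 FPKM in iQNP knockdown against 83.2 FPKM in iQNP control (-0.20), and at 165.5 FPKM in TAP knockdown against 374.3 FPKM in TAP control (-1.17).

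**Figure D4:**
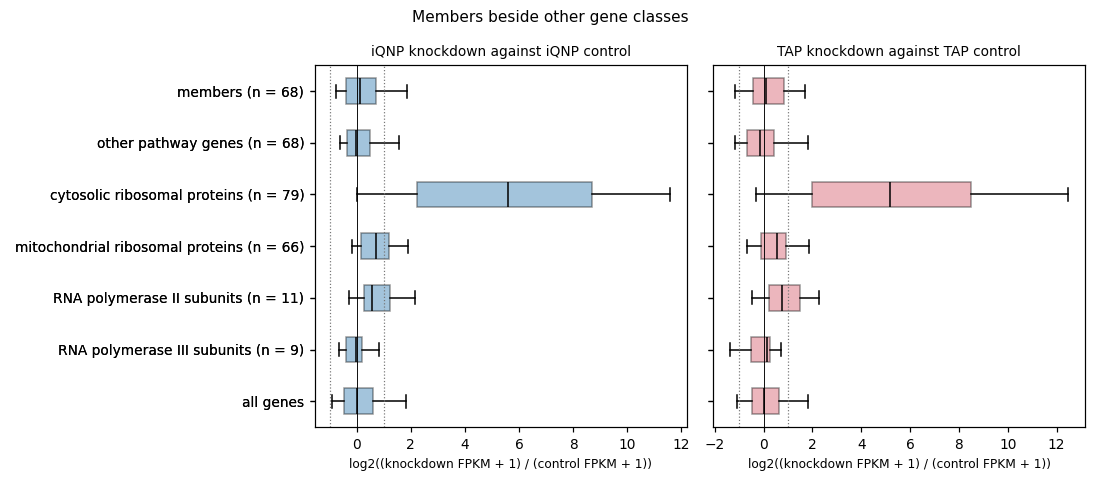
Log2 ratio of knockdown over control in iQNP (left) and TAP (right) for the members, the other pathway genes and 4 further classes beside all genes with at least 1 FPKM in either group. Boxes span the quartiles with the median as a line, whiskers run to the 5th and 95th percentiles, and dotted lines mark 2-fold. Cytosolic ribosomal proteins lie far to the right (medians 5.60 and 5.19), while the members centre at 0.10 and 0.11 on the deposited scale and below 0 on equal sums.

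Members with short loci had the higher ratios, as did short genes in general. The median member locus was 11872.5 bases in rn4. Of the 34 members under it, 14 were at least 2-fold higher in iQNP (41.2%), where 28.4% of all genes under that length were, and of the 34 over it 1 was (2.94%), where 7.54% of all genes over it were. In TAP, 9 were higher and 4 lower of the shorter 34, and 1 was higher and 3 lower of the longer 34, where 27.4% of all shorter genes were higher and 5.74% lower and 9.4% of all longer genes were higher and 7.62% lower, so the share of shorter members that were higher was near that of all shorter genes. Across members, log10 locus length and log2 ratio had a Pearson r of -0.38 and a Spearman rho of -0.39 in iQNP (r -0.43 without the 2 members farthest from the median length), and -0.21 and -0.26 in TAP (-0.30). Over 8812 genes r was -0.42 in iQNP and -0.33 in TAP. All these genes share the same libraries, and the part of fragment length, RNA integrity or library depth in this relation was not tested.

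**Figure D5:**
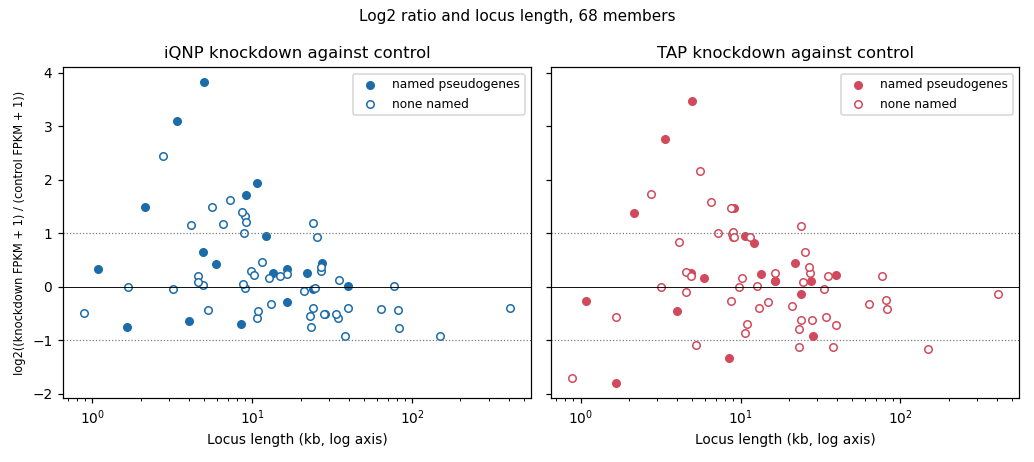
Log2 ratio of knockdown over control against locus length in kilobases (log axis) for 68 members, in iQNP (left) and TAP (right). Filled points have at least 1 named pseudogene in RefSeq, and dotted lines mark 2-fold. All but 1 of the 15 points past 2-fold in iQNP lie under 11872.5 bases, and the points under 2000 bases include none past 2-fold higher.

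Several members have named copies elsewhere that may take up their reads, though no alignment was examined. RefSeq names pseudogenes for 20 of the 68, with 20 for Npm1, 16 for Nip7, 9 for Ddx21, 7 for Fbl and 5 each for Nhp2, Nhp2l1 and Ncl, and reads from these genes can be placed on a copy or dropped, so their levels are uncertain. Of these 20 members, 5 were at least 2-fold higher in iQNP (25%), and in TAP 4 were higher and 2 lower. Of the 48 without a named pseudogene, 10 were higher in iQNP (20.8%), and in TAP 6 were higher and 5 lower. Over all genes 14.4% were higher in iQNP, and 15.4% were higher and 6.99% lower in TAP. Shares over all genes with named pseudogenes were not taken. The highest pair, Nhp2l1 and Nhp2, lay among those with pseudogenes, and Exosc4 had the highest iQNP ratio among those without. Introns of Taf1d, Nop56, Nop58, Ncl, Wdr43 and Gnl3 carry small nucleolar RNA genes, 8 in Taf1d, 5 each in Nop56 and Nop58 and 3 in each of the others. Total RNA can hold reads from them, and these 6 hosts had 0 members at least 2-fold higher in either medium and 1 lower (Ncl in TAP), with medians of -0.18 in iQNP and -0.45 in TAP. Over all genes with small nucleolar RNA genes inside, 18.3% were higher and 4.28% lower in iQNP and 17.6% and 9.02% in TAP, with medians of -0.04 in both media. Apart from Bop1, 5 members overlap another listed gene, Nop56 with Idh3B, Imp4 with Ccdc115, Rrp7a with Serhl2, Gnl2 with Dnali1 and Exosc8 with Fam48a, and counting by strand is not stated, so reads of the pairs cannot be told apart.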

How the data were processed

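The 12 libraries were paired-end total RNA depleted of ribosomal RNA with Ribo-Zero. The authors mapped reads to rn4 with TopHat2 and deposited 1 Cuffdiff table per medium, with 1 FPKM value per gene and group made from all its libraries; versions are not given in the sources used here, and the tables are marked as revised. The deposited log2 fold, score (test statistic), p-value and q-value columns hold the authors' own comparison and were not used, and the status column served only as a quality mark. FPKM carries no depth, and depth per library is unknown here.

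Groups came from the labels. The members, lists and comparisons were chosen with earlier results of these data known. Log2 ratios used a pseudocount of 1 FPKM and genes with at least 1 FPKM in either group; a gene counted as higher or lower from 2-fold. Named were the 4 markers, up to 4 members per role with the largest mean absolute ratio, all members past 2-fold lower, Rest and the 4 other pathway genes with the largest ratios; further names are given for context. Kinase genes beginning Rps6k, 9 in all, were left out of the ribosomal protein symbols. RefSeq (GRCr8) gave names, with 66 of 68 symbols matched directly and the others by synonym, pseudogenes, small nucleolar RNA genes and promoters. The ratio and counting steps were run on the iQNP control values with fixed changes put into chosen genes. No noise was added, so this checks the arithmetic only. Python 3.11.15, numpy 2.4.6, pandas 2.3.3, scipy 1.17.1 and matplotlib 3.10.9 were used.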

Additional observations from a re-analysis of the deposited data

How the results depend on the processing

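Pooled values limit every comparison: no library could be left out, no error exists, and the precision at low FPKM is unknown. No paired analysis was possible because the tables hold 1 value per group. The medians after knockdown turned sign under both scalings below and, in TAP, without members that have pseudogenes. These scalings lower log2 ratios by at most 0.61, too little to turn the sign of a member past 2-fold. The low pseudocount, the other minima on FPKM, the status filter, median centring and leaving out Nol3 and Nol4 kept each count within 1.5 times and each median within 0.25.

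Equal sums gave medians of -0.39 in iQNP and -0.48 in TAP, 6 members higher and 13 lower in iQNP, and 5 higher and 17 lower in TAP, where 7.85% of all genes were higher and 20.6% lower in iQNP and 6.92% and 25.7% in TAP. Equal sums without ribosomal protein genes gave medians of -0.0965 and -0.0490. They gave 2 lower in iQNP and 21 higher in TAP control than in iQNP control, where 8.02% and 9.49% of all genes were. Without members that have named pseudogenes, the TAP median was -0.00870. Of these 48, 6 were higher in TAP knockdown and 7 in TAP control than in iQNP control, where 15.4% and 6.5% of all genes were. A fold of 1.5 gave 18 of 68 members higher and 7 lower in iQNP, where 25.2% of all genes were higher and 18.2% lower. In TAP it gave 19 higher and 14 lower, where 26.5% and 20.5% of all genes were. For TAP control against iQNP control it gave 30 higher and 1 lower, where 15.8% and 21.8% of all genes were. A fold of 4 gave 3 higher in iQNP, where 4.07% of all genes were. In TAP it gave 3 higher and 0 lower, where 4.01% and 0.283% of all genes were. For TAP control against iQNP control it gave 0 higher, where 0.549% of all genes were. Of the 68 single ratios, 22 in iQNP and 15 in TAP crossed a 2-fold line under equal sums, against 5 and 4 with ribosomal protein genes left out, 0 and 3 with the low pseudocount and 0 and 1 with median centring. The shifts under equal sums follow from the larger FPKM sums after knockdown; the cause of those sums was not tested.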

Other observations

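The shortest members stood apart from the other short ones, a pattern noticed after the values were seen. The 4 members with loci under 2000 bases are Imp3 (889 bases), Nop10 (1086), Utp3 (1655) and Nol3 (1668). Their log2 ratios were -0.49, 0.33, -0.75 and 0.00 in iQNP and -1.71, -0.26, -1.80 and -0.58 in TAP, so 0 of 4 were at least 2-fold higher and all 4 were below 0 in TAP. Of the 30 members from 2000 bases to the median of 11872.5 bases, 14 were at least 2-fold higher in iQNP, and 9 were higher and 2 lower in TAP. Over all genes with at least 1 FPKM in either group, those under 2000 bases did not show this order in iQNP, with 36.2% of 403 at least 2-fold higher and 5.96% lower, against 27.3% of 2832 higher and 1.17% lower from 2000 bases to that median. In TAP, 28.0% of 421 genes under 2000 bases were higher and 14.3% lower, against 27.3% of 2751 higher and 4.43% lower in the longer class. Rrs1, a large subunit assembly factor from the list of other pathway genes, was at 61.7 FPKM in iQNP knockdown against 103.0 FPKM in iQNP control (-0.73), and at 86.9 FPKM in TAP knockdown against 233.6 FPKM in TAP control (-1.42). Other genes of that list, also named after their values were seen, past 2-fold lower in TAP besides Myc were Tex10 (-1.40), Aatf (-1.46, and -1.03 in iQNP), Mphosph10 (-1.12), which binds Imp3 and Imp4, Zcchc7 (-1.10), Sbds (-1.07) and Znhit6 (-1.01). Besides Polr2h, Polr2l, Polr2f and C1d, those past 2-fold higher in both media were the large subunit factor Nle1 (1.53 in iQNP and 1.32 in TAP), the processome protein Rcl1 (1.52 and 1.45), the chaperone ATPase Ruvbl1 (1.47 and 1.46) and Wdr18 (1.53 and 1.53). Wdr18 is a partner of Tex10 in the rixosome, and the pair was picked after its values were seen. Other genes of that complex lay between them: Senp3 (0.67 and 0.58), Pelp1 (0.28 and 0.57) and Las1l (-0.11 and -0.13). The locus of Tex10 has 202464 bases and that of Wdr18 has 8433, and the part of locus length was not tested.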
